A study of Mus musculus with 15 samples.

Results

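Imprinted genes are genes of which mainly the maternal or mainly the paternal copy is expressed. Of 43 imprinted genes listed from textbook knowledge, 41 were found by symbol in the annotation used here (GENCODE M1, built on the mouse genome mm9) among 26195 protein-coding and long noncoding genes, and each was described over its gene span widened by 5 kb on each side. Kcnq1ot1 and Peg13 were absent from that annotation and were left out as members. The 41 genes comprised 35 protein-coding and 6 long noncoding genes on 10 chromosomes, with 10 clusters of neighbouring members and 9 genes that stood alone. Their windows ranged from 10.8 kb for Mcts2 to 330 kb for Kcnq1, with a median of 30.7 kb, against 23.5 kb for all genes.

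ChIP-seq of H3K4me1, a histone mark of enhancers and of the flanks of promoters, and of H3K27ac, a mark of active enhancers and promoters, was performed in mouse ESCs and in expanded potential stem cells of 2 published culture conditions, D-EPSCs and L-EPSCs. The ESCs were the J1 line of the 129SV strain, and both EPSC states were converted from ESCs, so all 3 states represent 1 line. ESCs were kept in serum medium with LIF, CHIR99021 (a GSK3 inhibitor) and PD0325901 (a MEK inhibitor). Both EPSC states were grown without feeder cells before ChIP-seq, according to the study's methods, whereas for ESCs the labels give feeder cells (mouse embryonic fibroblasts) or gelatin without saying which was used for these samples. D-EPSC medium held LIF, CHIR99021, dimethindene maleate and minocycline, and L-EPSC medium held LIF, CHIR99021, PD0325901, A-419259, XAV939, JNK inhibitor VIII and SB203580, so that LIF and CHIR99021 were shared by all states. Each mark and state had 2 samples, and with 3 inputs there were 15 samples, but the values were 1 list of broad peaks per state and mark, 6 lists in all, so that no difference below has a replicate check and no test across samples was possible. A list holds positions only, so read depth is unknown, peak height was not measured, and the maternal and paternal copies cannot be told apart.

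Each imprinted cluster is governed by a control region that carries DNA methylation on 1 parental copy, placed there in the egg or in the sperm and maintained after fertilization while most other methylation is erased. At many clusters the unmethylated copy of that region is the promoter of a noncoding RNA or of a paternally expressed gene, and the KRAB zinc finger protein ZFP57 binds the methylated copy at the hexamer TGCCGC. Embryonic stem cells are known to gain or lose such imprints in culture, which makes these loci a common check of stem cell quality.

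The whole H3K27ac lists were much shorter in EPSCs, with 32782 peaks in D-EPSCs and 26966 in L-EPSCs against 64342 in ESCs, whereas the H3K4me1 lists held 102751, 105306 and 107222 peaks. This length difference touches every comparison of covered bases, so each count of imprinted genes is given beside the share of all genes that met the same rule. The 6 pluripotency factors examined (Pou5f1, Sox2, Nanog, Klf4, Esrrb and Zfp42) carried both marks in all 3 states. Of 12 markers of fibroblasts, the feeder cell type, 11, 10 and 11 had no H3K27ac base in ESCs, D-EPSCs and L-EPSCs, respectively, and none had H3K27ac at its start in any state. Their summed H3K4me1 was 41.7 kb, 34.9 kb and 31.4 kb in ESCs, D-EPSCs and L-EPSCs, with Col3a1, Lum and Dcn at 0 in all states. H3K4me1 lay within 1 kb of the start in 8 of the 12 in each state.

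H3K4me1 at the starts of imprinted genes differed between ESCs and both EPSC states. A gene start was counted as marked when a peak overlapped the 1 kb on either side of the 5′ end of the gene by at least 1 bp. In ESCs 16 of 41 imprinted starts were marked, in D-EPSCs 32 and in L-EPSCs 33, where the corresponding shares of all genes were 56.8%, 65.5% and 66.4%. Imprinted genes were below all genes in ESCs (39.0%) and above them in D-EPSCs (78.0%) and L-EPSCs (80.5%). A total of 16 imprinted starts were marked in both EPSCs and not in ESCs, a class that held 10.0% of all genes, and 0 were marked in ESCs and in neither EPSC, against 1.34% of all genes. These 16 were Airn, Zim1, Peg3, Ndn, Magel2, Mkrn3, Peg12, Sgce, Peg10, Dlk1, Meg3, Nespas, Zrsr1, Plagl1, Grb10 and Impact. For Grb10 the annotated 5′ end belongs to 1 transcript. The start shared by 4 of its transcripts, at chr11 position 11937404, had H3K4me1 within 1 kb in all 3 states. Igf2 and Snrpn had no H3K4me1 near the counted end in any state, but had it near other annotated starts in all 3 states. Mest had none near its counted end either, but had it near another start in both EPSCs and not in ESCs. The counts thus depend on the start chosen. H19 was marked in L-EPSCs only.

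At the first base itself, no imprinted gene had H3K4me1 over its first base in ESCs, against 13% of all genes, while 16 had it in D-EPSCs (27.2% of all genes) and 18 in L-EPSCs (32.2% of all genes). At 500 bp upstream of the start, 22.0% of imprinted genes lay under an ESC peak, 48.8% under a D-EPSC peak and 51.2% under an L-EPSC peak. The same position was under a peak in 28.0%, 41.3% and 43.6% of all genes. Farther out the states resembled each other: 4 kb downstream the imprinted shares were 24.4%, 24.4% and 19.5%.

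**Figure D1:**
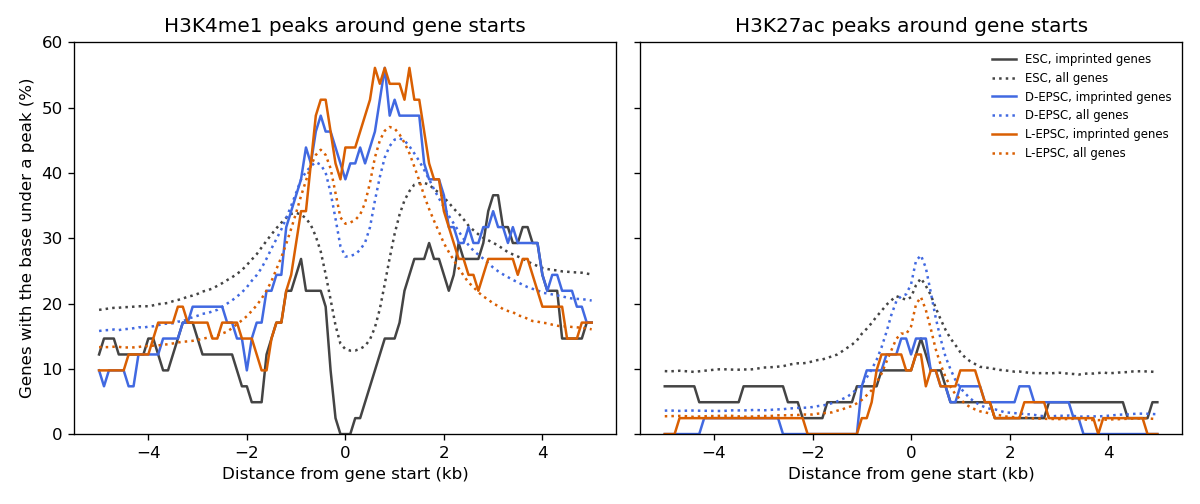
Share of genes whose base at a given distance from the gene start (x axis, kb, upstream negative) lay under a peak (y axis, percent), for H3K4me1 (left) and H3K27ac (right). Solid lines are the 41 imprinted genes and dotted lines the 26195 genes of the annotation, coloured by state; for H3K4me1 the solid ESC line falls to 0 at the start, where D-EPSCs reach 39.0% and L-EPSCs 43.9%.

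The members were then split by the parental copy that textbook knowledge gives as expressed. Of 23 members expressed from the paternal copy, 4 starts were marked by H3K4me1 in ESCs and 17 in each EPSC state. Of 16 members expressed from the maternal copy, 10 were marked in ESCs against 13 and 14 in the EPSC states. The ESC list marked 56.8% of all gene starts. The paternal group lay below that share and the maternal group above it. The D-EPSC list marked 65.5% of all starts and the L-EPSC list 66.4%, and both groups lay above these shares. Gnas and Inpp5f were placed in neither group. Among 15 members with a promoter at or beside a methylated control region by textbook knowledge, the annotated 5′ end was marked in 2 in ESCs (Nnat and Mcts2), 11 in D-EPSCs and 12 in L-EPSCs. For Snrpn and Mest that end belongs to an upstream transcript, and with the RefSeq start at the control region in its place the counts were 3, 13 and 14. The 15 were chosen after the peaks were seen. Their counts therefore describe the pattern and do not test for an effect of control regions. Meg3 and H19 are among the 15, although the control regions of their clusters lie upstream of these genes. Kcnq1ot1 is not among the 15, and H3K4me1 lay within 1 kb of its RefSeq start in all 3 states. The Gnas starts from 174153071 to 174153524, which had H3K4me1 within 1 kb in all 3 states, are not counted either. Of 40 neighbouring genes outside the list, 28 were marked in ESCs against 32 and 31 in the EPSC states, a smaller change from a higher start. These neighbours were listed by their position beside or around the clusters. Some may be imprinted themselves, so they are not a set of non-imprinted genes. These lists were compared by their counts only.

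**Figure D2:**
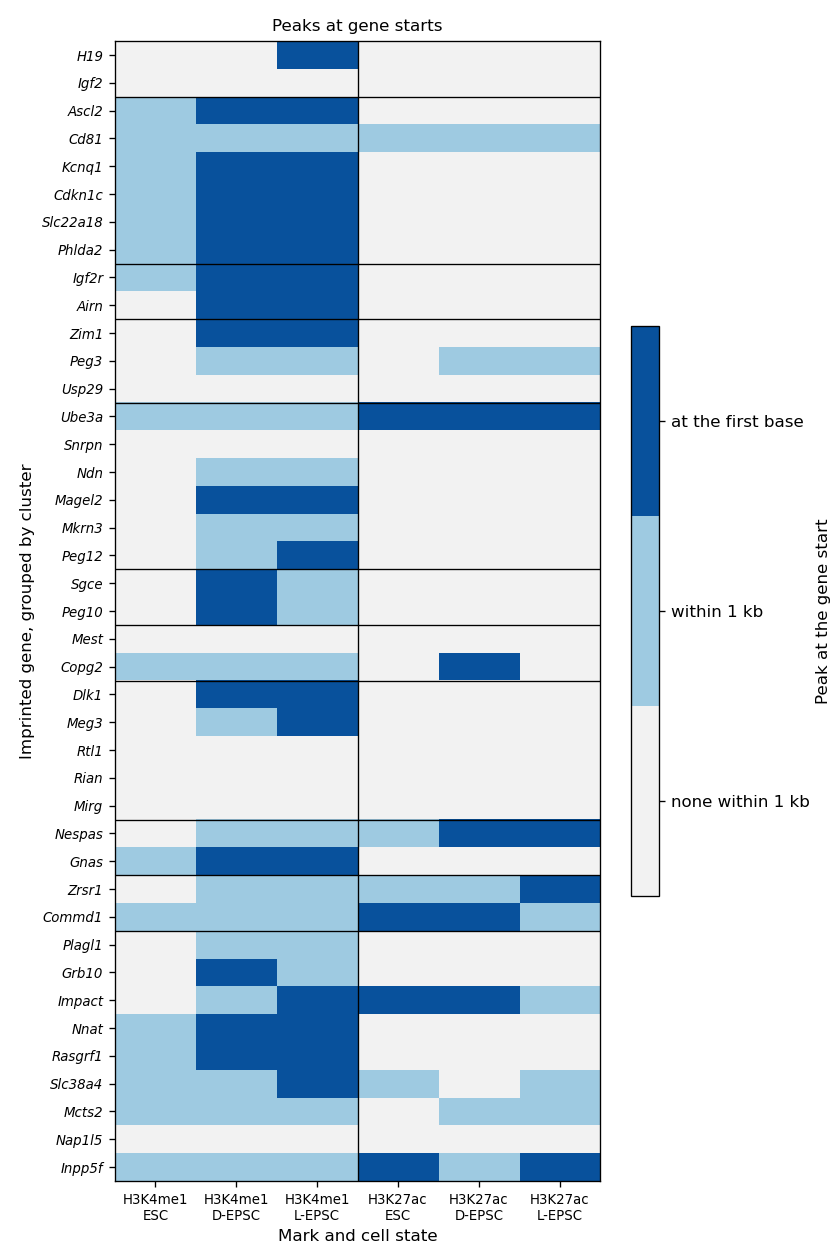
Peaks at the starts of the 41 imprinted genes (rows, grouped by cluster) for each mark and state (columns). Pale grey means no peak within 1 kb, light blue a peak within 1 kb and dark blue a peak over the first base; dark blue is missing from the H3K4me1 column of ESCs and fills 16 and 18 cells of the D-EPSC and L-EPSC columns.

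H3K4me1 was also compared as covered bases over the whole window. A gene was called where the bases differed by at least 2-fold and at least 1 kb was covered in either list. In D-EPSCs 9 of 36 imprinted genes had at least 2-fold more H3K4me1 than in ESCs, against 9.92% of all genes, and 2 had at least 2-fold less, against 6.47%. In L-EPSCs 10 of 37 had more, against 9.86% of all genes, and 1 had less, against 12.3%. Zim1, Peg3, Magel2, Peg10, Mest, Dlk1 and Mcts2 had more in both EPSCs, Snrpn and Mirg met the rule in D-EPSCs and not in L-EPSCs, and H19, Igf2r and Meg3 met it in L-EPSCs and not in D-EPSCs. Plagl1 had less in both, and Usp29 less in D-EPSCs. The counts of genes with more depended on the settings. They were 20 in D-EPSCs and 21 in L-EPSCs with lists cut to equal covered bases, a cut that kept 44749 of 107222 ESC peaks and all 105306 L-EPSC peaks. At 1.5-fold they were 17 in each, and without widening 6 in L-EPSCs. No share of all genes is given at these settings, so these counts are not read against all genes. With 20 kb of widening Mcts2 turned in L-EPSCs, to -3.35 kb against ESCs.

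The median window of an imprinted gene held 2.96 kb, 5.23 kb and 3.70 kb of H3K4me1 in ESCs, D-EPSCs and L-EPSCs, respectively, where the median of all genes was 3.97 kb, 3.97 kb and 3.50 kb. Summed over the 33 merged windows, however, H3K4me1 covered 302 kb, 300 kb and 276 kb, since a few wide windows with less H3K4me1 in EPSCs balanced many small ones with more. The log2 ratios over ESCs were -0.01 in D-EPSCs and -0.13 in L-EPSCs, where the whole lists gave -0.24 and -0.35. Any increase at all was seen in 29 of 41 genes in D-EPSCs and any decrease in 9, against 36.3% and 43.3% of all genes. In L-EPSCs 25 increased and 14 decreased, against 30.4% and 50.3% of all genes.

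**Figure D3:**
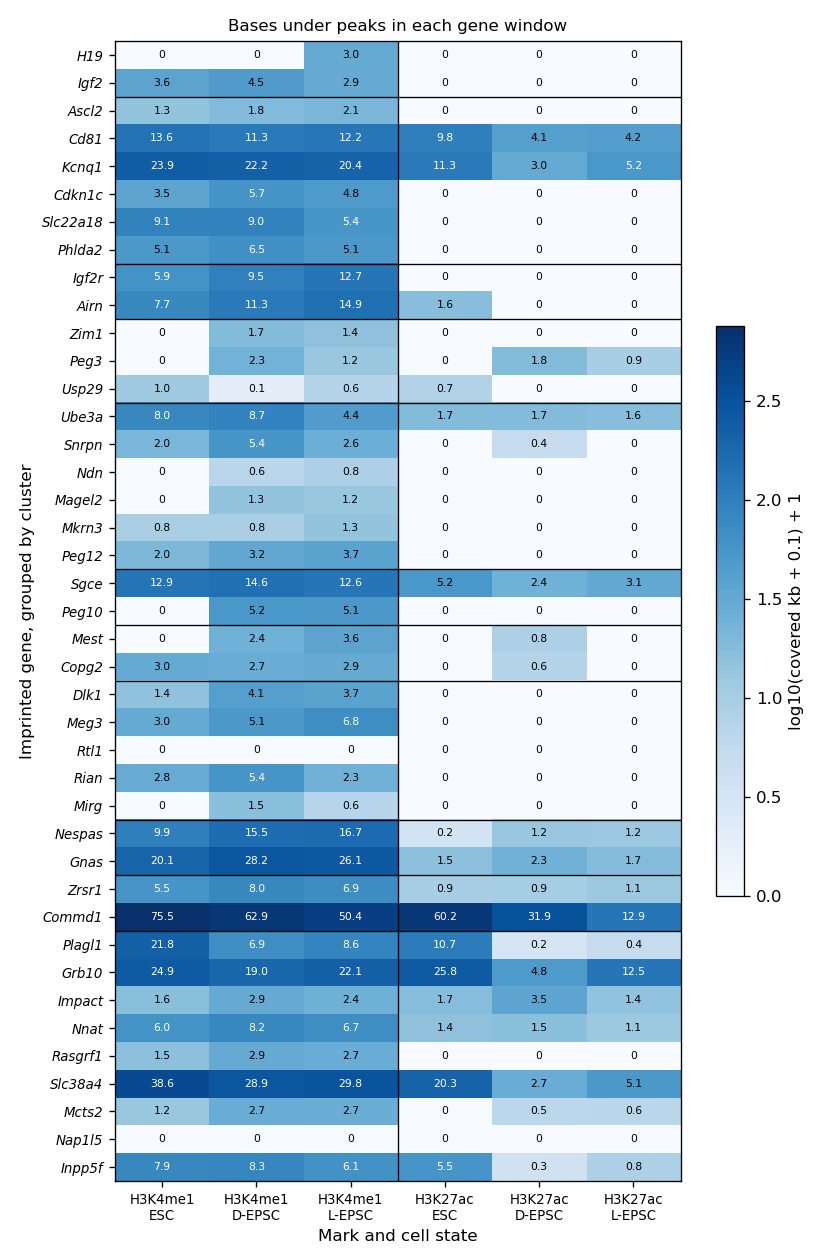
Bases under peaks (kb, printed in each cell) in the window of each imprinted gene (rows, grouped by cluster) for each mark and state (columns). The colour scale is log10 of the covered kb plus 0.1, plus 1; 7 genes change from 0 in the H3K4me1 ESC column to a positive value in both EPSC columns, and Rtl1 and Nap1l5 are 0 throughout.

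A total of 7 genes had no H3K4me1 base in the ESC list and some in both EPSC lists, namely Peg3, Zim1, Ndn, Magel2, Peg10, Mest and Mirg, a pattern seen in 3.55% of all genes. They are described with their clusters below, together with the sequence of starts whose H3K4me1 was found in EPSCs only. In the 2 kb around the start, the hexamer TGCCGC (searched on both strands, so also as GCGGCA) was present in 25 of 41 imprinted genes, or 61.0%, and in 41.9% of all genes. It was present in 12 of the 16 imprinted genes with H3K4me1 at the start in both EPSCs only, or 75.0%, and in 63.1% of all genes of that class. It was nearly as frequent in imprinted genes with H3K4me1 at the start in all 3 states, at 11 of 16 or 68.8%. The same 2 kb held a median of 78 CpG in imprinted genes and 55 in all genes. A match describes the letters in the window and is not evidence that ZFP57 bound there. The H19 sites aside, all stretches below are 120 bases of the mm9 genome within 1 kb of a gene start and outside annotated exons. They were chosen for the most hexamers, which are in capitals, and each is read 5′ to 3′ on the strand of the gene.

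The Peg3 cluster on chromosome 7 held the largest relative difference in H3K4me1 among the 10 clusters. Its span of 298 kb carried 4.91 kb, 16.0 kb and 12.8 kb of H3K4me1 in ESCs, D-EPSCs and L-EPSCs, respectively, or log2 ratios over ESCs of 1.71 and 1.38. Peg3 encodes a paternally expressed zinc finger protein. Its window had no base of either mark in ESCs, while in D-EPSCs H3K4me1 covered 2.26 kb and H3K27ac 1.76 kb, and in L-EPSCs these were 1.19 kb and 0.889 kb. The peaks lay on both sides of the start and not over it. On the upstream side H3K4me1 was found at chr7:6683395-6685084 (1557 bp and 732 bp in the D and L states). Within introns of Peg3 H3K27ac was found at chr7:6681727-6682201 (475 bp and 416 bp) and at chr7:6679716-6681003 (1288 bp and 473 bp). Between them, with no peak of either mark in any list, lay a CpG-rich stretch of the Peg3 intron at chr7:6682773-6682892 (minus strand) that held 3 hexamers, shown because the EPSC peaks flank it:
Peg3: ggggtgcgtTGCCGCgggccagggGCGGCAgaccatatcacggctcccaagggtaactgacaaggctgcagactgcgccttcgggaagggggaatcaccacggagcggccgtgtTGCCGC

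Zim1, a maternally expressed zinc finger gene beside Peg3, had 0 kb, 1.73 kb and 1.44 kb of H3K4me1 in ESCs, D-EPSCs and L-EPSCs, respectively, mostly in a region over its start at chr7:6648627-6649776. Its window had no H3K27ac in any state. Usp29, a paternally expressed gene of a ubiquitin peptidase, was annotated only over a short distal span, and its window differed the other way, with 1.05 kb, 0.087 kb and 0.624 kb in ESCs, D-EPSCs and L-EPSCs, respectively. The RefSeq start of Usp29 matched mm9 beside the start of Peg3, and H3K4me1 lay within 1 kb of it in both EPSCs and not in ESCs. Between the windows of Peg3 and Usp29 there were 15 H3K4me1 regions, 1 of which runs on into the Usp29 window, and 6 were found in both EPSCs only and 1 in ESCs only. Their bases outside both windows summed to 3.86 kb, 12.0 kb and 9.54 kb in ESCs, D-EPSCs and L-EPSCs, respectively.

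Peg10 and Sgce on chromosome 6 share a promoter region and are transcribed in opposite directions, Peg10 as a retrotransposon-derived gene needed in the placenta and Sgce as a sarcoglycan, both from the paternal copy. The Peg10 window held 0 kb, 5.23 kb and 5.12 kb of H3K4me1 in ESCs, D-EPSCs and L-EPSCs, respectively, with no H3K27ac in any state. The widest H3K4me1 region with peaks in both EPSCs only among all imprinted windows lay over both starts at chr6:4695637-4700390, of which 4173 bp were covered by D-EPSC peaks and 3562 bp by L-EPSC peaks. A second one lay within Peg10 at chr6:4703774-4705422 (1058 bp and 1556 bp). Sgce as a whole had 12.9 kb, 14.6 kb and 12.6 kb in ESCs, D-EPSCs and L-EPSCs. Its ESC peaks lay in 4 regions within the gene, the nearest centred 8.54 kb from the start, and 7160 bp of them were in the region centred 68.4 kb away. Its H3K27ac covered 5.16 kb, 2.38 kb and 3.11 kb, none of it within 1 kb of the start. The windows of the pair overlap, so the promoter region counts for both. A stretch of the Peg10 intron at chr6:4697810-4697929 (plus strand) with 1 hexamer is shown because H3K4me1 covered it in both EPSCs and not in ESCs:
Peg10: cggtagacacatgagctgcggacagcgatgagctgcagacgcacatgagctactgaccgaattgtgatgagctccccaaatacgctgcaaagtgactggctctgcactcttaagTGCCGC

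Mest, a paternally expressed hydrolase gene on chromosome 6, had 0 kb, 2.40 kb and 3.57 kb of H3K4me1 in ESCs, D-EPSCs and L-EPSCs, respectively. The 5′ end of the annotated gene belongs to an upstream transcript and carried no peak. At the start of the RefSeq transcript, chr6 position 30683506, H3K4me1 covered the first base in both EPSCs and not in ESCs, within a region at chr6:30682658-30683695 (861 bp and 985 bp). A second region in both EPSCs lay downstream at chr6:30685136-30686839 (1534 bp and 887 bp). H3K27ac was found in D-EPSCs only, over 0.758 kb. Copg2, an antisense neighbour that encodes a coat protein subunit, changed little, with 3.02 kb, 2.74 kb and 2.93 kb of H3K4me1, and had 0.641 kb of H3K27ac over its start in D-EPSCs only.

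In the Snrpn-Ndn cluster on chromosome 7, the region of Prader-Willi and Angelman syndromes, H3K4me1 at 4 intronless paternally expressed genes was found within 1 kb of the start in both EPSCs and not in ESCs. Magel2, a MAGE family gene, had 0 kb, 1.33 kb and 1.18 kb in ESCs, D-EPSCs and L-EPSCs, in 1 region over its start at chr7:69521408-69522739. Ndn, which encodes necdin, had 0 kb, 0.578 kb and 0.773 kb at chr7:69493452-69494231, under the minimum for a call. Mkrn3 had 0.839 kb, 0.846 kb and 1.34 kb, and Peg12 had 1.97 kb, 3.21 kb and 3.69 kb. None of these 4 windows had an H3K27ac base in any list. Snrpn, whose promoter is the control region of the cluster, had 2.05 kb, 5.41 kb and 2.59 kb in ESCs, D-EPSCs and L-EPSCs, respectively. The 5′ end of Snrpn in the annotation belongs to a far upstream transcript with no peak, whereas the start of its short transcript had H3K4me1 within 1 kb in all 3 states. Just downstream, a region at chr7:67146678-67148817 was found in both EPSCs only (1128 bp and 1115 bp), with 0.399 kb of H3K27ac in D-EPSCs only. Ube3a, the maternally expressed ubiquitin ligase gene, carried H3K27ac over its start in all states (1.73 kb, 1.73 kb and 1.59 kb) and H3K4me1 over 8.03 kb, 8.75 kb and 4.44 kb.

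The Dlk1-Meg3 cluster on chromosome 12 carried 14.6 kb, 25.8 kb and 23.9 kb of H3K4me1 in ESCs, D-EPSCs and L-EPSCs, respectively, or log2 ratios of 0.83 and 0.71. Dlk1, a paternally expressed Notch-related ligand gene, had 1.40 kb, 4.09 kb and 3.70 kb, with H3K4me1 over the first base at chr12:110690878-110692166 in both EPSCs (1252 bp and 1220 bp) and not in ESCs. Meg3, the maternally expressed noncoding RNA, had 2.96 kb, 5.14 kb and 6.77 kb. Most of its difference lay around the start at chr12:110776583-110781166, where peaks covered 381 bp, 2129 bp and 4505 bp in ESCs, D-EPSCs and L-EPSCs, respectively, with the first base under a peak in L-EPSCs only. Neither gene had H3K27ac in its window in any state. Rian, a noncoding RNA that hosts small nucleolar RNAs, had 2.82 kb, 5.44 kb and 2.33 kb, and Mirg, a microRNA host, had 0 kb, 1.53 kb and 0.605 kb. Rtl1, a paternally expressed retrotransposon-derived gene antisense to them, had no peak of either mark.

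The control region of this cluster is intergenic, between Dlk1 and Meg3. In that interval H3K4me1 at chr12:110760223-110765077 was alike in the 3 lists (3729 bp, 3481 bp and 3648 bp), whereas at chr12:110766218-110772123, nearer to Meg3, it covered 2216 bp, 3864 bp and 5871 bp in ESCs, D-EPSCs and L-EPSCs, respectively. H3K27ac in the interval was sparse and at different places. It covered 821 bp at chr12:110761351-110762171 and 305 bp at chr12:110760202-110760506 in ESCs only, 1273 bp at chr12:110767491-110768763 in D-EPSCs only, and none in L-EPSCs.

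**Figure D4:**
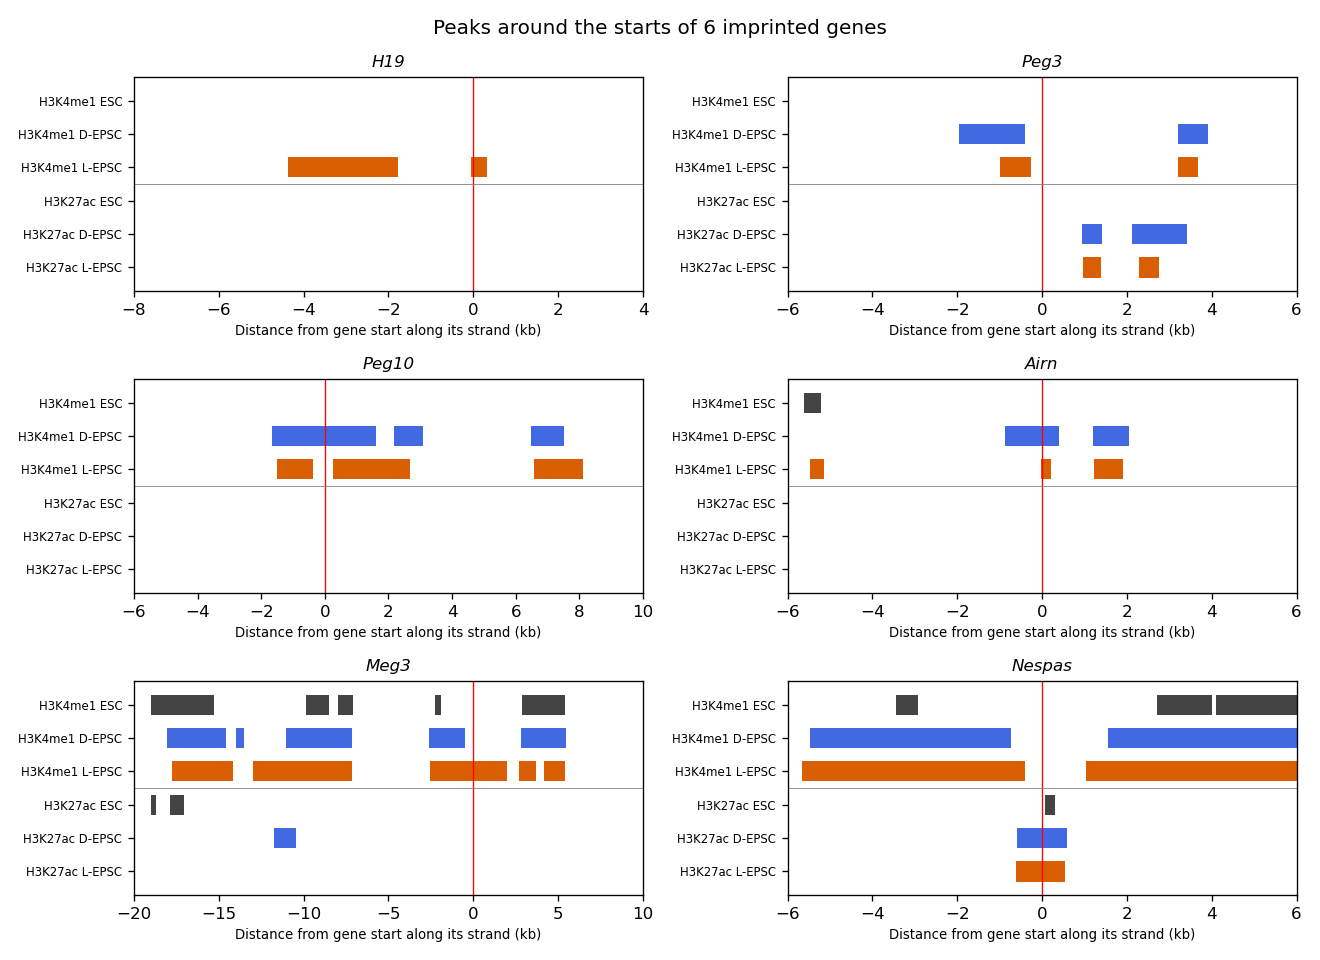
Peaks of each list (rows, H3K4me1 above and H3K27ac below the grey line) around the starts of 6 imprinted genes, by distance along the strand of the gene (x axis, kb, red line at the start; the range differs between panels). ESC bars are missing within 1 kb of the starts of H19, Peg3, Peg10, Airn and Meg3, where EPSC bars stand over or beside the start. The start itself is covered in both EPSCs at Airn, in D-EPSCs only at Peg10 and in L-EPSCs only at Meg3. No bar covers it at Peg3, and at H19 bars are seen in L-EPSCs only.

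Igf2r is the maternally expressed receptor that clears IGF2, and Airn is the paternally expressed noncoding RNA that runs antisense through it on chromosome 17. The widened windows of the 2 genes overlap over 38.4 kb, or 39.4% of the Igf2r window and 29.8% of the Airn window. H3K4me1 in the Igf2r window covered 5.90 kb, 9.54 kb and 12.7 kb in ESCs, D-EPSCs and L-EPSCs, respectively, and in the Airn window 7.73 kb, 11.3 kb and 14.9 kb. L-EPSCs were highest at both. The Airn promoter, which is the control region, lies in an intron of Igf2r and had H3K4me1 over its first base at chr17:12933297-12934572 in both EPSCs (1276 bp and 233 bp) and not in ESCs, and again at chr17:12935369-12936222 (854 bp and 694 bp). The Igf2r start was marked in all states. The single H3K27ac region of the pair, 1604 bp in the body of Airn at chr17:12984138-12985741, was found in ESCs only. A stretch of an Airn intron at chr17:12934532-12934651 (plus strand), which overlapped the H3K4me1 region in D-EPSCs only, is shown because 2 hexamers lie close together at its end:
Airn: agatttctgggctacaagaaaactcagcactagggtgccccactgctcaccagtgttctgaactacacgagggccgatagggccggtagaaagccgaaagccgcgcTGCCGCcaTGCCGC

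H19 and Igf2 on chromosome 7 share a control region upstream of H19, which is methylated on the paternal copy and binds the insulator protein CTCF on the maternal copy. H19, the maternally expressed noncoding RNA, had no peak of either mark in ESCs or D-EPSCs, and 2.96 kb of H3K4me1 in L-EPSCs. That signal was 366 bp over the start at chr7:149763735-149764100 and 2595 bp at chr7:149765831-149768425, centred 3.08 kb upstream, with 0 bp in the other lists. H3K4me1 regions found in L-EPSCs only made up 6.02% of the regions in imprinted windows and 8.23% of all regions. The core letters of the CTCF motif, GGNGGCAG (searched on both strands), occurred 5 times in the upstream peak, all 5 on the strand of H19, which is minus. Of all 26195 genes, 59.6% held the core at least once in the window of the same length and distance upstream, and 0.981% held it at least 5 times. The window was set by this peak and the core was chosen after the peaks were seen. These shares therefore describe the sequence and do not test for enrichment. The 5 matches are shown on that strand with 11 bases on each side, in capitals the core, in the order of their distance from the H19 start (chr7:149766203-149766232, chr7:149766658-149766687, chr7:149767684-149767713, chr7:149767803-149767832 and chr7:149767928-149767957). The hexamer TGCCGC, left in lower case here, lies in the flanks of sites 1, 3 and 5, outside the 2 kb around the start counted above. The sites are shown because a peak found in 1 list of 6 covers them all:
H19 site 1: cgatgccgcgtGGTGGCAGtacaatactac
H19 site 2: tgctaccgcgcGGTGGCAGcatactcctat
H19 site 3: ggttgccgcacGGCGGCAGtgaagtctcgt
H19 site 4: aatgccactagGGGGGCAGgacacatgcat
H19 site 5: agttgccgcgtGGTGGCAGcaaaatcgatt

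Igf2, the paternally expressed growth factor gene, had no H3K27ac in any list and 3.63 kb, 4.52 kb and 2.92 kb of H3K4me1 in ESCs, D-EPSCs and L-EPSCs. Its widest region in all states lay over the promoters of the shorter transcripts at chr7:149843650-149847228, with 1649 bp, 3579 bp and 2920 bp. Between H19 and Igf2, a region at chr7:149796115-149798596 was marked by H3K4me1 in all lists (1748 bp, 1437 bp and 1857 bp). Neither gene of the pair carried H3K27ac in its window in any list.

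In the Gnas cluster on chromosome 2, Gnas encodes the stimulatory G protein subunit and Nespas is a noncoding RNA antisense to it, expressed from the paternal copy. With the minimum of 1 kb, Nespas was the only imprinted gene with at least 2-fold more H3K27ac in both EPSCs, while Peg3 and Mcts2, at 0 in ESCs, had H3K27ac in both but stayed under that minimum, Peg3 in L-EPSCs and Mcts2 in each EPSC state. Nespas had 0.244 kb, 1.19 kb and 1.15 kb in ESCs, D-EPSCs and L-EPSCs, respectively, or log2 ratios of 2.28 and 2.24. With 20 kb of widening in place of 5 kb, the H3K27ac of EPSCs minus that of ESCs was -0.452 kb in D-EPSCs and, for L-EPSCs, -1.79 kb. With 5 kb, all of it lay over the Nespas start at chr2:174120348-174121550. H3K4me1 in the Nespas window covered 9.93 kb, 15.5 kb and 16.7 kb, and reached to within 1 kb of the start in both EPSCs and not in ESCs, with a gap over the start itself. A second H3K27ac region, at chr2:174155298-174156673 over annotated starts of Gnas from position 174155507 on, was found in all states (723 bp, 1131 bp and 550 bp). The next group of Gnas starts upstream, from 174153071 to 174153524, had no H3K27ac within 1 kb, and its first bases were under H3K4me1 in both EPSCs and not in ESCs. Within 1 kb of these starts H3K4me1 lay in all 3 states. Gnas as a whole had 1.47 kb, 2.32 kb and 1.70 kb of H3K27ac and 20.1 kb, 28.2 kb and 26.1 kb of H3K4me1. A stretch just upstream of Nespas at chr2:174121338-174121457 (minus strand) is shown because H3K27ac overlapped it in both EPSCs and not in ESCs. It held 3 hexamers, 2 of which overlap:
Nespas: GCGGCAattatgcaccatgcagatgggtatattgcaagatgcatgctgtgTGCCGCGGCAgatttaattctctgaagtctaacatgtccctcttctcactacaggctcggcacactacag

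H3K27ac over the imprinted windows as a whole was lower in EPSCs, in proportion to the lists. The merged windows carried 157 kb, 62.5 kb and 51.5 kb in ESCs, D-EPSCs and L-EPSCs, respectively, with log2 ratios of -1.33 and -1.61 where the whole lists gave -1.27 and -1.65. Of 15 imprinted genes with at least 1 kb in either list, 8 had at least 2-fold less H3K27ac in D-EPSCs than in ESCs, against 59.9% of all genes, and 3 had at least 2-fold more, against 4.81%. In L-EPSCs 8 of 15 had less, against 77.0% of all genes, and 1 had more, against 1.73%. Cd81, Kcnq1, Airn, Plagl1, Grb10, Slc38a4 and Inpp5f had less in both EPSCs, Sgce in D-EPSCs and Commd1 in L-EPSCs. Peg3, Nespas and Impact had more in D-EPSCs. These counts depended on the unequal lists: with lists cut to equal covered bases, 2 imprinted genes had less H3K27ac in D-EPSCs and 0 in L-EPSCs, and 9 had more in each. That cut kept 3725 of 64342 ESC peaks and all 26966 L-EPSC peaks. No share of all genes is given for it, so these counts are not read against all genes.

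No H3K27ac base was found in any list at 20 imprinted genes, against 39.9% of all genes, and 18 of these had H3K4me1 in at least 1 list, against 21.5% of all genes. The acetylated regions found in ESCs only numbered 43 of 91 in imprinted windows, against 53.6% of all H3K27ac regions, and those found in both EPSCs only numbered 4, against 2.35%. The 4 were both Peg3 regions, 1 at Mcts2 and 1 beside the Kcnq1ot1 start. For H3K4me1, 19 of 166 regions were found in ESCs only, against 14.5% of all, and 25 in both EPSCs only, against 7.27%.

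At gene starts H3K27ac differed less than H3K4me1. It lay within 1 kb of the start in 8 imprinted genes in ESCs (34.7% of all genes), 10 in D-EPSCs (33.6% of all genes) and 10 in L-EPSCs (27.5% of all genes). The first base was covered in 4, 5 and 4 imprinted genes, against 21.0%, 23.0% and 16.5% of all genes. Of H3K4me1 peaks in imprinted windows, 36.0% overlapped H3K27ac in ESCs and 19.7% in each EPSC state, and of all H3K4me1 peaks 39.4%, 22.2% and 17.9% did in ESCs, D-EPSCs and L-EPSCs.

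The Kcnq1 cluster on chromosome 7 combined little change of H3K4me1 with less H3K27ac. Its span held 73.9 kb, 64.1 kb and 59.4 kb of H3K4me1 and 34.1 kb, 8.48 kb and 11.9 kb of H3K27ac in ESCs, D-EPSCs and L-EPSCs. The H3K4me1 log2 ratios over ESCs were -0.21 in D-EPSCs and -0.32 in L-EPSCs, near those of the whole lists (-0.24 and -0.35). For H3K27ac they were -2.01 and -1.52, where the whole lists gave -1.27 and -1.65. The H3K27ac decrease thus exceeded that of the list in D-EPSCs and not in L-EPSCs. Kcnq1, a potassium channel gene, had 11.3 kb, 3.02 kb and 5.24 kb of H3K27ac, mostly in an intronic region at chr7:150301904-150311845 (9942 bp, 1671 bp and 3669 bp). Cd81, a tetraspanin gene, had 9.83 kb, 4.07 kb and 4.22 kb, of which the region at chr7:150238819-150242985 next to its start was kept in all lists (4091 bp, 3031 bp and 3551 bp). The growth inhibitors Cdkn1c and Phlda2, the transporter gene Slc22a18 and Ascl2, a transcription factor gene of the trophoblast, had no H3K27ac in any list, and their starts carried H3K4me1 within 1 kb in every state. In all 4 the first base was under H3K4me1 in both EPSCs and not in ESCs. Cdkn1c had 3.52 kb, 5.72 kb and 4.78 kb of H3K4me1, Phlda2 5.08 kb, 6.49 kb and 5.13 kb, and Ascl2 1.30 kb, 1.81 kb and 2.06 kb. Slc22a18 had 9.13 kb, 9.03 kb and 5.36 kb.

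The promoter of Kcnq1ot1, the noncoding RNA that is the control point of this cluster, was placed inside Kcnq1 by an exact match of its RefSeq promoter to chr7 position 150482452 of mm9. H3K27ac flanked it. On its downstream side, a region at chr7:150481380-150482396 was found in both EPSCs only (680 bp and 965 bp in the D and L states). On the upstream side, a region at chr7:150482870-150483790 was found in all lists (748 bp, 665 bp and 603 bp). H3K4me1 lay within 1 kb in all 3 states, and neither mark covered the first base.

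**Figure D5:**
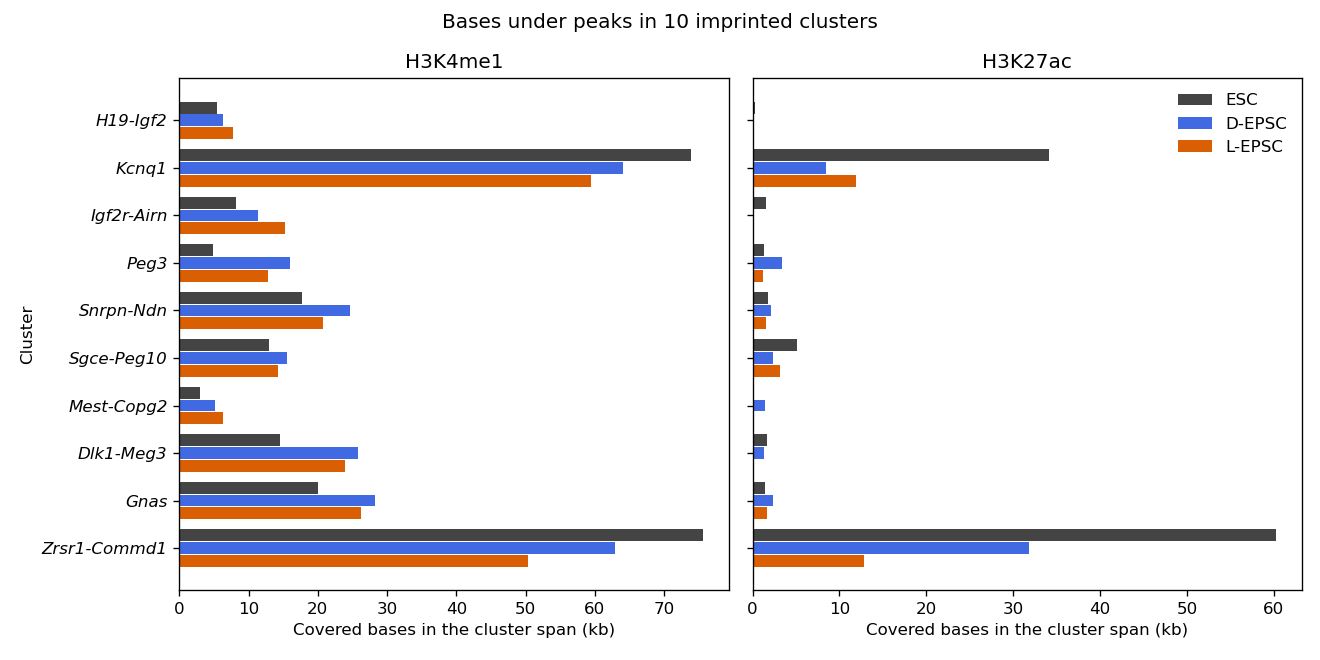
Bases under peaks (x axis, kb, from 0) summed over the span of each of the 10 clusters (y axis), for H3K4me1 (left) and H3K27ac (right), with 1 bar per state. H3K4me1 bars of EPSCs exceed the ESC bar in 8 clusters and fall below it in Kcnq1 and Zrsr1-Commd1, the clusters with the longest bars, where H3K27ac is also lower in EPSCs.

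Zrsr1, a paternally expressed splicing factor gene on chromosome 11, lies within an intron of Commd1, a gene of copper and NF-kB regulation. The Zrsr1 window held 0.888 kb, 0.932 kb and 1.13 kb of H3K27ac, at the start in all states, and 5.49 kb, 7.99 kb and 6.91 kb of H3K4me1. A 2521 bp H3K4me1 region upstream of it at chr11:22869311-22871831 was found in both EPSCs only (2113 bp and 1465 bp). The Commd1 window had the most H3K27ac of all members, with 60.2 kb, 31.9 kb and 12.9 kb in ESCs, D-EPSCs and L-EPSCs, respectively. The difference was greater in L-EPSCs, with log2 ratios of -0.92 and -2.23. It involved long introns at chr11:22742350-22757506 (15157 bp, 11148 bp and 5288 bp), which also overlaps B3gnt2, and at chr11:22844223-22853254 (9032 bp, 6935 bp and 493 bp). Commd1 H3K4me1 covered 75.5 kb, 62.9 kb and 50.4 kb.

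Among the genes that stood alone, Plagl1 differed in opposite ways at its start and in its body. Plagl1, a paternally expressed zinc finger gene on chromosome 10, had 10.7 kb, 0.212 kb and 0.400 kb of H3K27ac in ESCs, D-EPSCs and L-EPSCs, respectively, and 21.8 kb, 6.88 kb and 8.57 kb of H3K4me1. The H3K27ac log2 ratios were -5.66 and -4.74, the lowest of the members with H3K27ac in all 3 lists. The acetylated regions lay more than 10 kb downstream of the start, the widest at chr10:12825265-12829908 (4644 bp, 212 bp and 400 bp) and at chr10:12831278-12834287 (3010 bp in ESCs only). At the start, by contrast, H3K4me1 was found at chr10:12810973-12811629 in both EPSCs only (378 bp and 547 bp). The stretch next to it, at chr10:12810831-12810950 (plus strand), had no peak in any list and is shown because it carries 2 of the 6 hexamers around this start:
Plagl1: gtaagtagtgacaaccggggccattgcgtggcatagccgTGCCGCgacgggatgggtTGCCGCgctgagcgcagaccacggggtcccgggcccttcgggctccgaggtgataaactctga

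Grb10, a growth inhibitor gene on chromosome 11, showed a like pair of differences. Its window had 25.8 kb, 4.78 kb and 12.5 kb of H3K27ac in ESCs, D-EPSCs and L-EPSCs, respectively, chiefly toward the 3′ end at chr11:11838582-11851907 (12820 bp, 4336 bp and 7748 bp) and chr11:11864102-11869776 (5675 bp, 0 bp and 1837 bp). L-EPSCs kept more of it than D-EPSCs. H3K4me1 covered 24915 bp, 19000 bp and 22107 bp, and at the start of its shorter transcripts a region at chr11:11925522-11927005 was found in both EPSCs only (1460 bp and 1426 bp). The shorter transcripts are those made from the paternal copy in neurons.

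Slc38a4, a paternally expressed amino acid transporter gene on chromosome 15, had 20.3 kb, 2.74 kb and 5.08 kb of H3K27ac, with the widest region in ESCs only at chr15:96864873-96869644 (4772 bp). Its H3K4me1 covered 38.6 kb, 28.9 kb and 29.8 kb, a smaller difference. Inpp5f, a phosphatase gene on chromosome 7, had 5.54 kb, 0.274 kb and 0.772 kb of H3K27ac, with ESC-only regions at chr7:135810221-135812661 (2441 bp) and chr7:135815977-135817435 (1459 bp). Its H3K4me1 changed little, at 7.89 kb, 8.34 kb and 6.12 kb.

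Impact, a paternally expressed gene of translational control on chromosome 18, had 1.66 kb, 3.53 kb and 1.37 kb of H3K27ac in ESCs, D-EPSCs and L-EPSCs, respectively, over its start in ESCs and D-EPSCs. Its H3K4me1 covered 1.56 kb, 2.88 kb and 2.45 kb. Mcts2, a paternally expressed retrogene inside H13 on chromosome 2, had no H3K27ac in ESCs and 0.534 kb and 0.565 kb in D-EPSCs and L-EPSCs, with 1.18 kb, 2.75 kb and 2.68 kb of H3K4me1 (in L-EPSCs less than in ESCs when the span was widened by 20 kb). The acetylated region lay just upstream of its start at chr2:152511802-152512385. Nnat, a paternally expressed proteolipid gene inside Blcap, had 1.43 kb, 1.51 kb and 1.11 kb of H3K27ac in its window. That H3K27ac lay outside Nnat, in a region over Blcap at chr2:157391532-157393288, and none lay within 1 kb of the Nnat start. H3K4me1 covered 6.01 kb, 8.21 kb and 6.71 kb. It lay within 1 kb of the start in all states and over the first base in both EPSCs and not in ESCs. Rasgrf1, a paternally expressed exchange factor gene on chromosome 9, had no H3K27ac, and its H3K4me1 of 1.47 kb, 2.94 kb and 2.73 kb stayed just under a 2-fold difference. Nap1l5 had no peak of either mark in any list.

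Genes that maintain imprints were examined from a list of 13 (Zfp57, Zfp445, Trim28, Setdb1, Dnmt1, Uhrf1, Dppa3, Ctcf, Arid4a, Arid4b, Hells, Atrx and Daxx). Of 11 with enough H3K27ac, 4 had at least 2-fold less in D-EPSCs and 9 in L-EPSCs, with 0 higher in either state. Under the same rule 59.9% and 77.0% of all genes had less. Zfp57 itself had 16.7 kb, 8.35 kb and 5.92 kb of H3K27ac and a near constant 16.4 kb, 16.1 kb and 16.8 kb of H3K4me1 in ESCs, D-EPSCs and L-EPSCs. Uhrf1, the partner of the maintenance methyltransferase DNMT1, had 13.6 kb, 3.17 kb and 1.43 kb of H3K27ac and 24.0 kb, 11.5 kb and 11 kb of H3K4me1, less of both marks in both EPSCs. Dppa3, which protects imprints after fertilization, had 1.52 kb, 1.45 kb and 0 kb of H3K27ac. For H3K4me1, 1 of 13 had less in D-EPSCs and 3 in L-EPSCs, against 6.47% and 12.3% of all genes. In L-EPSCs 1 had more, against 9.86% of all genes. Of the 40 neighbours of imprinted genes, 13 of 20 had at least 2-fold less H3K27ac in D-EPSCs and 16 of 18 in L-EPSCs, against the same 59.9% and 77.0% of all genes, and 0 had more. H3K4me1 of the neighbours was higher in 5 of 33 in D-EPSCs and in 4 of 34 in L-EPSCs, against 9.92% and 9.86% of all genes. It was lower in 2 and 7, against 6.47% and 12.3% of all genes.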

How the data were processed

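ChIP-seq of H3K4me1 and H3K27ac in 3 cell states was analysed (2 samples for each combination, besides 3 inputs). According to the study's methods and processing notes, the authors trimmed reads with Trim Galore 0.6.3, aligned them to mm9 with Bowtie2 2.3.5 and called broad peaks against input with MACS2. The deposited lists give the start and end position of each peak and a name, with no count, score or p-value, and do not state the threshold or whether replicates were pooled. Depth, which affects list length, is unknown.

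Lists were assigned to states and marks by their names, and no peak passed a chromosome end of NCBIM37. Covered bases and peaks were computed in gene spans (GENCODE M1) widened by 5 kb, with calls at 2-fold and 1 kb, and at gene starts with 1 kb on each side and an overlap of 1 bp. Regions were joined peaks of the 3 states of a mark. RefSeq promoters were placed by exact match. No test was run, since each state had 1 list per mark. The members, the gene lists and the rules were chosen with earlier results of these data known, and the fibroblast, pluripotency and control region lists and the CTCF core after the peaks were seen. Every member was accounted for, with values in all 6 lists for those called in both EPSCs or whose start lies at a control region, and the widest region of each class. Overlapping windows share peaks. The code was checked on 200 simulated lists, with 0 errors in 4000 windows. Python 3.11.15, numpy 2.4.6 and matplotlib 3.10.9 were used. Alternatives were lists of equal number or equal covered bases (the widest peaks), peaks joined within 1 kb, peaks of at least 500 bp, no widening or 20 kb, a 1.5-fold call, minimums of 500 bp and 2000 bp, and other start windows.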

Additional observations from a re-analysis of the deposited data

How the results depend on the processing

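No paired analysis was possible because each state and mark has 1 peak list, whose rows carry no replicate. Of the counts, 94 alternative values stayed within 1.5 times the reported count and 38 did not. No share of all genes is given beside the alternative counts, so they are not read against all genes. With lists of equal covered bases, which by construction keep only the widest ESC peaks (3725 of H3K27ac), the genes with less H3K27ac fell from 8 to 2 in D-EPSCs and 0 in L-EPSCs, those with more rose to 9 and 9, those with more H3K4me1 rose to 20 and 21, marked starts fell to 0 (ESCs) and 4 (D-EPSCs) for H3K27ac and to 2 (ESCs) for H3K4me1, and regions in ESCs only fell to 0 for both marks. Differences in kb of EPSCs minus ESCs reversed there for H3K27ac at Cd81 (4.07 and 4.22), Slc38a4 (1.55 and 5.08), Plagl1 (0.400, L-EPSCs) and Inpp5f (0.772, L-EPSCs). With lists of equal number, 3 genes had more H3K27ac in L-EPSCs, 5 starts were marked in ESCs and 15 H3K27ac regions were found in ESCs only. Genes with more H3K27ac numbered 6 (D-EPSCs) and 3 (L-EPSCs) at a 500 bp minimum, 1 and 0 at 2000 bp, and, in L-EPSCs, 2 with peaks joined within 1 kb, 0 without widening and 0 with 20 kb. Genes with less H3K4me1 numbered 1 in D-EPSCs without widening, 1 with 20 kb and 1 at 2000 bp, and in L-EPSCs 2 with joined peaks, 3 without widening and 4 at 1.5-fold. Genes with more H3K4me1 numbered 17 and 17 at 1.5-fold, and 6 in L-EPSCs without widening. Joined peaks left 12 H3K4me1 regions in ESCs only. At the first base, H3K27ac marked 4, 5 and 4 starts and H3K4me1 0, 16 and 18, and 10 ESC starts had H3K4me1 within 500 bp. With 20 kb of widening, H3K27ac at Nespas reversed (-0.452 and -1.79) and H3K4me1 at Mcts2 (-3.35, L-EPSCs). The cause of the other differences was not tested. With 1 list a state, differences between lists cannot be told apart from differences of depth or peak calling.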

Other observations

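The start difference in H3K4me1 was also present outside imprinted genes. Of the 6 pluripotency factors, 1 start was marked in ESCs and 5 in each EPSC state, while 5 carried H3K27ac in each of the 3 states. Sox2, Nanog, Klf4 and Zfp42 were among those marked by H3K4me1 in both EPSCs only. Their H3K4me1 windows held 6.16 kb, 7.97 kb and 7.79 kb at Sox2 and 8.95 kb, 14.1 kb and 13.1 kb at Nanog in ESCs, D-EPSCs and L-EPSCs. At these genes the start also carried H3K27ac in every list, which 10 or fewer of the 41 imprinted genes did in any list.

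Among the fibroblast markers, Twist1 and Twist2 had at least 2-fold more H3K4me1 in both EPSCs, with 0.842 kb, 3.79 kb and 2.51 kb at Twist1 and 0.612 kb, 2.25 kb and 1.94 kb at Twist2, and Pdgfrb had less, with 14.0 kb, 3.28 kb and 3.41 kb. None of these 3 had an H3K27ac base in any list. Col1a1 was the only marker with more than 1 kb of H3K27ac, with 6.74 kb, 0.669 kb and 0.445 kb in ESCs, D-EPSCs and L-EPSCs, respectively.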
